A study of Oryzias latipes with 50 samples.

Results

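The libraries described here are RNA-seq samples of a medaka (Oryzias latipes) brain block taken in July, August and September 2017, set against the same months of 2016. They were chosen by the sampling month on the label, which gave 6 libraries of 2017 and 6 of 2016, 2 for each of 6 dates, of 50 libraries and 25 dates in all. Each library comes from ventral telencephalon, hypothalamus and pituitary as 1 block, from fish living outdoors at Okazaki, Japan, sampled near 8 pm. The 2017 dates were 20 July, 24 August and 19 September, and the 2016 dates were 20 July, 25 August and 28 September. Day length, computed from the date and latitude, was 14.2 h in July 2017 and 14.2 h in July 2016, 13.2 h in August 2017 and 13.1 h in August 2016, and 12.2 h in September 2017 and 11.8 h in September 2016. All groups share natural light and temperature, with no genotype or treatment named. The labels give no strain, sex or age, do not give the number of fish in a library, and give no water temperature or preparation batch. The year therefore cannot be told apart from anything else that differed between these summers, such as the temperature of the days before sampling, the cohort of fish or the handling of the libraries.

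The question a month-by-month comparison addresses is how far the brain transcriptome of the same season differs between successive years. Several gene groups that respond to weather or physiology bear on it. Heat shock proteins are chaperones that hold or refold unfolded proteins; HSP90 and HSP70 work in the cytosol with co-chaperones, and a separate set works in the endoplasmic reticulum. In fish, as in other vertebrates, many of their genes are switched on by heat shock factors when proteins unfold. The circadian clock, the enzymes of fatty acid and cholesterol synthesis, and the pituitary hormones that drive reproduction, growth and background colour are further groups known to change with time of day, feeding or season.

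Values are FPKM, fragment abundance per transcript length and library size, as the authors deposited them. They summed to between 306808 and 332024 per library in 2017 and between 297710 and 317154 in 2016. Read counts were not part of the table. The steps between low values gave a relative depth of 0.914 to 1.11 in 2017 and 0.98 to 1.06 in 2016, with 81.4% of 3700 low values within 0.1 step of a whole multiple, so no counting intervals are given. The 2 libraries of a date correlated at 0.98 or above across genes, against 0.942 to 0.98 between dates. The dissection held its labelled parts in both years. Summed pituitary marker levels were 4435 to 10710 FPKM in 2017 and 4739 to 8181 FPKM in 2016, hypothalamic ones 345.9 to 581.9 FPKM in 2017 and 337.4 to 540.4 FPKM in 2016, and telencephalic ones 276 to 342.8 FPKM in 2017 and 273.5 to 325.2 FPKM in 2016. Erythrocyte markers summed to 1777 to 4551 FPKM in 2017 and 1300 to 3517 FPKM in 2016, and skeletal muscle markers to 6.24 to 14.3 FPKM in 2017 and 7.04 to 10.9 FPKM in 2016.

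Chaperone genes led the summer of 2017, most of all in August. Date means were fitted with the calendar month as a block, and 564 of 16493 genes tested (3.42%) passed an adjusted p of 0.05 in limma, 372 higher in 2017 (2.26%) and 192 lower (1.16%). Of these, 87 differed by at least 2-fold, and the median over all genes tested was 0.03 on the log2(FPKM + 1) scale, on which all log2 differences below are given as 2017 minus 2016. The count rests on all 3 month pairs: 15 genes passed without the July pair, 0 without the August pair and 271 without the September pair. At an unadjusted p under 0.05 in limma there were 3772 genes, and 2569 without the August pair. When only the 6 dates entered the fit, 11 passed. Of the 372 higher genes, 238 had their largest difference in August, 96 in September and 38 in July.

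Of 43 chaperone genes tested (51 matched in the table), 21 were higher in 2017, 0 were lower and 22 did not pass. Their median difference was 0.96, against 0.03 over all genes. In 17 of the 43, all 6 libraries of 2017 lay above all 6 of 2016, a pattern seen in 6.1% of all genes. The limma count was 0 in the 6 dates alone, 22 without the September pair, 1 without the July pair and 0 without the August pair. In that last fit 24 of the 43 were higher and 0 lower at an unadjusted p under 0.05 in limma. Of all 16493 genes tested, 1731 were higher and 838 lower in the same way. The list was written, and its members grouped by place in the cell, with earlier results of these data known. Among the 43, 3 passed the filter on low values only through the 2017 libraries; without those 3, 21 of 40 were higher, with a median of 0.9. In a bulk tissue a change in the number of cells of a type and a change in RNA per cell cannot be told apart.

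Averaged over the 3 months, the largest rise among the chaperones was that of LOC101169506, annotated as HSP90 alpha (hsp90aa1), the heat-inducible HSP90 of the cytosol. It had 559 and 521 FPKM in the libraries of July 2017, 2887 and 2546 in August 2017 and 113 and 86.7 in September 2017. In 2016 it had 41.9 and 39.7 FPKM in July, 40.6 and 49.5 in August and 23.9 and 30.4 in September. Every library of 2017 was above every library of 2016, and August 2017 was far above the other 2 months of that summer. Date means were 1119 ± 1401 FPKM in 2017 and 37.6 ± 9.34 FPKM in 2016 (SD, n = 3 dates each), and the month-blocked difference was 3.81 ± 0.64 (SE, adjusted p = 0.0109). The SE and adjusted p of this and the other summer differences rest on the spread of all 12 month pairs. They do not measure the spread of the 3 summer pairs alone. In the 6 dates alone LOC101169506 did not pass in limma (adjusted p = 0.0741). By month its difference was 3.69 in July, 5.89 in August and 1.84 in September, which were unequal in an F test (adjusted p = 7.8e-15). Here and below, tests of single months and of their inequality use libraries as units. Their p-values measure only the spread between the 2 libraries of a date, not between dates or years. In August alone the HSP70 genes LOC111947725 (7.11) and LOC101169944 (6.64) had larger differences. In the 38 libraries of all other dates LOC101169506 stayed between 9.34 and 99.1 FPKM, with a median of 46.3.

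The constitutive partner hsp90ab1 had a difference of 0.27 and did not pass over the summer, while it passed in August alone, at 0.73. LOC100125490, an HSP70 of the cognate type, had 267 and 261 FPKM in July 2017, 916 and 819 in August 2017 and 37.7 and 26.4 in September 2017. Its values of 2016 were 21.1 and 17.8 FPKM in July, 29.3 and 29.8 in August and 17.2 and 21.8 in September. July and August 2017 lay above all libraries of 2016, while 1 library of September 2017 was below both of August 2016, and the difference was 3.07 ± 0.52 (adjusted p = 0.0109).

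LOC101169944, an inducible-type HSP70, had 39.2 and 28.3 FPKM in July 2017, 402 and 198 in August 2017 and 4.15 and 4.7 in September 2017. Its levels in 2016 were 1.79 and 2.69 FPKM in July, 1.84 and 1.83 in August and 2.24 and 0.85 in September. The groups did not overlap, and the difference was 3.74 ± 0.67 (adjusted p = 0.0147). The related LOC111947725 rose by 3.72 ± 0.73 (adjusted p = 0.0199) and LOC111947723 by 3.43 ± 0.64 (adjusted p = 0.0157), with August 2017 again highest. These HSP70 copies are alike, so how the authors' counting split reads among them is uncertain. LOC101169944 was not at its base level at every other date, with 19.7 and 16 FPKM in January 2016. A further HSP70-type gene, LOC101169455, had a difference of 2.60 and did not pass (adjusted p = 0.0744).

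**Figure D1:**
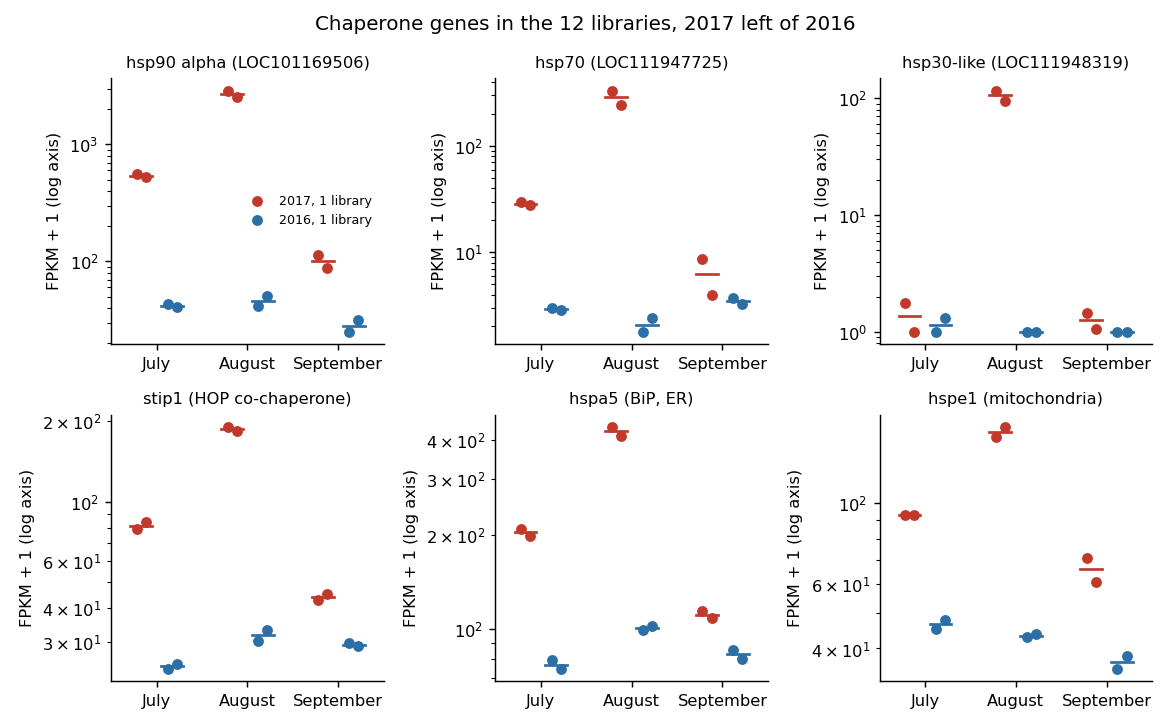
Level of 6 chaperone genes in July, August and September, as FPKM + 1 on a log axis, with 2017 left of 2016, 1 point per library and a line at the mean of each date. HSP90 alpha (LOC101169506) sits at 2887 and 2546 FPKM in August 2017 and at 40.6 and 49.5 FPKM in August 2016, and its points of 2017 lie lowest in September.

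Some co-chaperones of the cytosol moved with them. stip1, which links HSP70 to HSP90, rose by 1.63 ± 0.23 (adjusted p = 0.0083), with 1.74 in July, 2.56 in August and 0.59 in September. chordc1, an HSP90 co-chaperone, had 26.7 and 31.5 FPKM in July 2017, 56.1 and 47.6 in August 2017 and 14.6 and 16.1 in September 2017. In 2016 its 6 libraries lay between 9.99 and 11.5 FPKM, below all of 2017, and the difference was 1.36 ± 0.21 (adjusted p = 0.00885). LOC101155314, of the ahsa1 type that speeds the HSP90 ATPase, rose by 1.14 ± 0.25 (adjusted p = 0.0286), and hspa4, an exchange factor of HSP70, by 0.67 ± 0.10 (adjusted p = 0.0083). dnajb1, a J-domain partner of HSP70, had a difference of 1.14 and did not pass (adjusted p = 0.0501). Nor did dnaja2 at 0.19, bag3 at -0.17 and dnajb5 at -0.25, and dnajb5 fell in August by 0.50. Of 18 cytosolic HSP90, HSP70 and co-chaperone genes, 10 were higher, with a median of 1.25.

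The endoplasmic reticulum set rose too, with 7 of 12 members higher and a median of 1.04. hsp90b1, its HSP90, rose by 1.61 ± 0.25 (adjusted p = 0.00885), and hspa5, its HSP70 known as BiP, by 1.30 ± 0.26 (adjusted p = 0.0225). LOC101169735, a calreticulin that folds glycoproteins, had 50 and 55.2 FPKM in July 2017, 85.5 and 101.9 in August 2017 and 37.2 and 36.4 in September 2017, against 17.6 to 25.7 FPKM in the 6 libraries of 2016. It differed by 1.17 in July, 1.83 in August and 1.02 in September. pdia6 and pdia4, which form disulfide bonds, rose by 1.38 ± 0.23 (adjusted p = 0.0109) and 1.17 ± 0.25 (adjusted p = 0.0261). serpinh1, the chaperone of collagen, rose by 1.48 ± 0.35 over the summer (adjusted p = 0.0356). It did not pass in September, where it had 6.91 and 6.24 FPKM in 2017 and 6.12 and 7.08 FPKM in 2016. The unfolded protein response list shares some members with the chaperone list. Of its 19 genes, 2 were higher and 0 lower (2.26% and 1.16% of all genes): hspa5, and sdf2l1 at 0.86.

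In the mitochondrion hspe1, the co-chaperonin, rose by 1.23 ± 0.19, while its partner hspd1 had 0.50 and did not pass (adjusted p = 0.0682). Of 3 subunits of the CCT chaperonin, which folds actin and tubulin, 2 were higher: tcp1 by 0.38 ± 0.09 and cct5 by 0.48 ± 0.12. Their 3 months were close, with medians of 0.34, 0.40 and 0.36 over the CCT genes, and none of the 3 was unequal between months. The small heat shock protein hspb8 rose by 0.96 ± 0.22 (adjusted p = 0.0344). The hsp30-like LOC111948319 had 115.3 and 93.6 FPKM in August 2017 and is listed at 0 in both libraries of August 2016. Elsewhere in these months it reached at most 0.77 FPKM in 2017 and 0.32 FPKM in 2016, and over the summer it did not pass (adjusted p = 0.0971). LOC111948318 has the same value in every library, so reads of these copies cannot be assigned to one of them. Both passed the filter on low values only through the 2017 libraries. Of the heat shock factors, hsf1 had a difference of 0.01 over the summer and hsf2 of -0.38, and neither passed. In single months hsf1 rose in July by 0.29 and fell in August by 0.38. hsf2 fell in July by 0.56 and in August by 0.51.

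In 26 of the 43 chaperones the difference was largest in August, next in July and smallest in September, an order seen in 13.3% of all genes tested. It held for 14 of 18 cytosolic and 8 of 12 endoplasmic reticulum genes, but for 0 of 3 CCT subunits, 0 of 2 heat shock factors and 1 of 5 small heat shock proteins. In 29 of 43 the months were unequal (16.1% of all genes were). Taken alone, July 2017 had 28 members higher and 1 lower, August 32 higher and 3 lower, and September 19 higher and 0 lower. Over all genes tested, 6.63% were higher and 5.97% lower in July, 12.8% and 16% in August, and 17% and 6.82% in September. The medians of the 43 were 0.55 in July, 1.66 in August and 0.32 in September. Without the 3 genes that passed the filter only through the 2017 libraries, August had 29 of 40 higher, 25 of 40 had that order of months and 26 of 40 were unequal. With libraries scaled to each other the September counts were 17 higher with 1 or 2 lower.

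**Figure D2:**
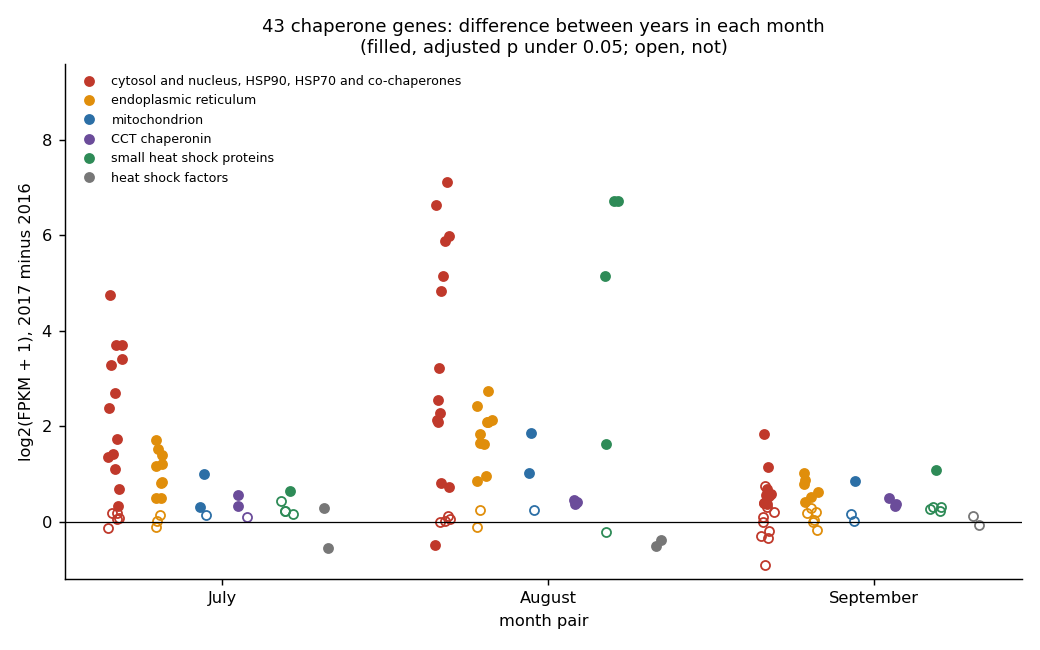
Difference of each chaperone gene between 2017 and 2016 on the log2(FPKM + 1) scale, in July, August and September, grouped by place in the cell. The cytosolic set has a median of 1.38 in July, 2.2 in August and 0.38 in September, and the CCT subunits lie near 0.4 in each month.

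Genes outside the chaperone list shared the August peak. LOC101162572, annotated as the kinase WNK1, had 223 and 152 FPKM in July 2017, 637 and 588 in August 2017 and 35.9 and 26.9 in September 2017. The libraries of 2016 had 46 and 45.6 FPKM in July, 22.4 and 17.7 in August and 13.1 and 17.4 in September, so that the groups overlapped through September 2017. The difference was 2.62 ± 0.60 (adjusted p = 0.0342), and the gene had also reached 90.6 and 74 FPKM in May 2017. Its call was lost in limma with no filter (adjusted p = 0.0614). LOC101172185, a TMEM120A-type membrane protein, had 49.7 and 36.5 FPKM in July 2017, 83.4 and 93.2 in August 2017 and 15.1 and 10.4 in September 2017. In 2016 its libraries lay between 3.53 and 10.6 FPKM, overlapping with 2017 at 1 library of September, and the difference was 2.41 ± 0.40 (adjusted p = 0.0109). herc4, a ubiquitin ligase, had 55.4 and 54.5 FPKM in August 2017, against 10.2 and 9.87 in August 2016. It had 12.9 and 14.6 FPKM in July 2017 and 9.98 and 9.25 in July 2016, and did not pass over the summer (adjusted p = 0.0526).

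**Figure D3:**
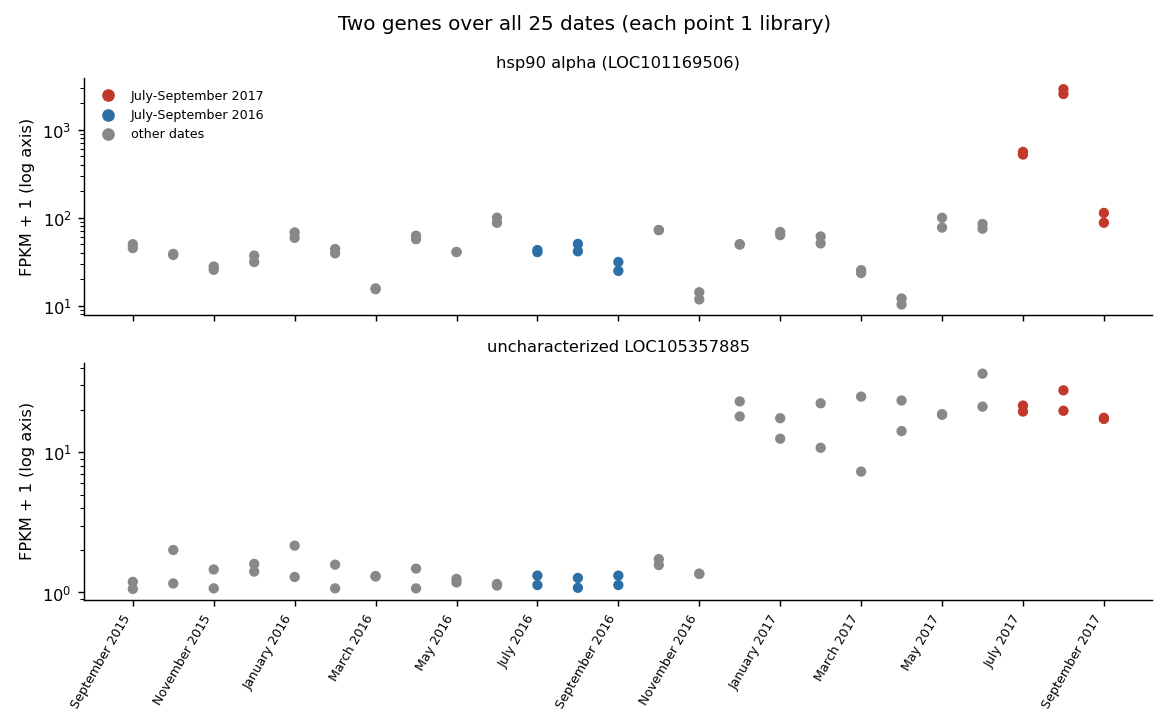
Level of HSP90 alpha (LOC101169506) and of LOC105357885 at every sampling date, as FPKM + 1 on a log axis, with 1 point per library and July to September of 2017 and of 2016 in colour. HSP90 alpha is far above its range at the other dates, 9.34 to 99.1 FPKM, in July and August 2017, whereas LOC105357885 changes level in December 2016 and keeps it.

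Some genes that were higher in 2017 had changed before the summer. In 8 genes, all 20 libraries from December 2016 on lay above all 30 earlier ones, and all 8 were among the 372; no gene lay below in the same way. The date was chosen after the values were seen. By this definition the summer libraries of 2017 lay above those of 2016, so the place of the 8 among the 372 is no separate support. LOC105357885 had 18.6 and 20.6 FPKM in July 2017, 18.8 and 26.7 in August 2017 and 16.6 and 16.3 in September 2017, against at most 0.32 FPKM in 2016. Before December 2016 it never passed 1.16 FPKM, and from then on it was never under 6.29 FPKM. Its summer difference was 4.08 ± 0.71 (adjusted p = 0.0121), and it did not differ by the test from that of October to June (adjusted p = 0.33). LOC111948153 rose by 3.63 ± 0.66 (adjusted p = 0.0147) and LOC110014190 by 3.33 ± 0.74 (adjusted p = 0.0286), and the other 5 have no symbol. LOC110014190 and LOC105357885 are neighbours in the ASM223467v1 annotation of RefSeq, where their ends overlap. Whether fish, dissection or library preparation changed at that date was not tested.

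Among 9 pituitary hormone genes tested, 1 rose and 0 fell, against 2.26% and 1.16% of all genes tested. LOC100049402, somatolactin (smtl), a hormone of the pars intermedia known in medaka for its part in body colour, had 328 and 534 FPKM in July 2017, 617 and 402 in August 2017 and 164 and 259 in September 2017. Its values of 2016 were 104.2 and 112.1 FPKM in July, 241 and 260.2 in August and 45.4 and 49.8 in September. The pairs did not overlap within a month, though September 2017 lay within the range of July and August 2016. Date means were 384 ± 154 FPKM in 2017 and 135 ± 104 FPKM in 2016 (SD, n = 3 dates each), a difference of 1.68 ± 0.40 (adjusted p = 0.0389). The call was lost in limma without 1 library of August 2017 (replicate 1; adjusted p = 0.0522), with no filter (0.0685) and in the 6 dates alone (0.0559). Without the July, August or September pair the adjusted p was 0.152, 0.135 and 0.159. The gene is one of 14 pituitary markers, of which no other passed. The sums of that list overlapped between years in July and in September but not in August. There they were 10710 and 8232 FPKM in 2017 and 5645 and 6786 FPKM in 2016, with somatolactin included. Hypothalamic sums of August were 581.9 and 520 FPKM in 2017 and 438.4 and 442 FPKM in 2016. The part of tissue content in the August differences was not tested.

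The gonadotropin subunits differed in single months. fshb, the follicle-stimulating subunit, had a summer difference of -0.37 that did not pass, and fell in August alone, by 1.60, the months being unequal (adjusted p = 0.0004). cga, the subunit shared by the gonadotropins and thyrotropin, had 0.11 over the summer and rose by 1.05 in September. lhb, the luteinizing subunit, had 0.19 and pomc, the precursor of corticotropin and melanotropin, 0.39; neither passed. LOC101171460, growth hormone, had -0.36 and fell in September by 1.07, and the prolactin LOC101172582 had 0.22 and rose in August by 1.17. The thyrotropin subunit LOC105354380 had -1.0 and did not pass (adjusted p = 0.0746), with a fall of 1.83 in September, while the related LOC101171658 had 0.54 and rose by 1.43 in September. LOC105354380 passed when 1 library was left out, July 2017 replicate 1 (adjusted p = 0.0445) or August 2016 replicate 2 (adjusted p = 0.0409).

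No gene of the photoperiod and thyroid hormone list (22 tested), the sex steroid list (13) or the hypothalamic neuropeptide list (45) passed over the summer in limma. Of them 5, 3 and 7 had an unadjusted p under 0.05 in limma, as had 3772 of all 16493 genes tested. dio2, which makes active thyroid hormone, had 0.06 over the summer, rose in August by 0.67 and fell in September by 0.80. dio3, which inactivates the hormone, had 0.16, fell in July by 0.64 and rose in September by 1.05. The thyrotropin receptor LOC101170361 had -0.45 and did not pass (adjusted p = 0.0747). gnrh1, the releasing hormone of the gonadotropins, had 0.03 and fell in August by 0.91, gnrh3 had 0.18 and kiss-2, a kisspeptin, had -0.42. cyp19b, the brain aromatase that makes estrogen, had 0.37 and rose in September by 0.86, whereas the estrogen receptor esr1 had -0.32 and fell in September by 0.65. cirbp, the cold-inducible RNA-binding protein, had -0.20 and fell in July by 0.36 and in September by 0.32.

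Lower genes had smaller differences and included 2 clock genes. LOC101156434, an nr1d2-type Rev-erb, a repressor of the clock, had 9.04 and 10.7 FPKM in July 2017, 8.56 and 7.28 in August 2017 and 4.17 and 5.5 in September 2017. In 2016 it had 17.5 and 15.8 FPKM in July, 19.6 and 16.5 in August and 14.7 and 15.6 in September. Every library of 2017 was below every one of 2016, and the difference was -1.09 ± 0.26 (adjusted p = 0.0389). That call was lost in limma with no filter (adjusted p = 0.067) and in the 6 dates alone (0.0602). Without the July, August or September pair the adjusted p was 0.0857, 0.181 and 0.172. The other 3 Rev-erb genes on the list fell in each of the 3 months taken alone and did not pass over the summer: LOC101174341 at -1.19 (adjusted p = 0.0728), LOC101173939 at -1.16 (adjusted p = 0.0906) and LOC101163230 at -0.76 (adjusted p = 0.0645). LOC101174341, of the nr1d1 type, had 23.6 and 22 FPKM in July 2017, 19.8 and 19.5 in August 2017 and 32.7 and 37.8 in September 2017, against 44.3 to 71.8 FPKM in 2016.

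Of 35 clock genes, 0 rose and 2 fell over the summer, against 2.26% and 1.16% of all genes tested, with a median of -0.12. In 8 all libraries of 2017 lay below those of 2016 (4.49% of all genes), and in 2 they lay above (6.1%). Besides LOC101156434, the gene that fell was an hlf gene, of a family that binds the same promoters as the clock output factors dbp and tef. Its difference was -0.50 ± 0.13 (adjusted p = 0.047). That call was lost without July 2017 replicate 2, or without replicate 1 of July, August or September 2016, with adjusted p-values of 0.0514 to 0.0612, and also with median ratio scaling (0.0519) and with no filter (0.0695). LOC101170052, an rorb-type activator that opposes Rev-erb, had 53.7 and 56 FPKM in July 2017, 78.7 and 73.4 in August 2017 and 30 and 32.2 in September 2017, against 21.1 to 25.9 FPKM in 2016. Its groups did not overlap, yet over the summer it did not pass (adjusted p = 0.0541), with 1.10 in July, 1.68 in August and 0.28 in September. By month, 7 clock genes were higher and 8 lower in July, 8 higher and 14 lower in August and 4 higher and 13 lower in September. Scaled libraries gave 1 higher and 16 lower clock genes in September. Over all genes tested, as deposited, 6.63% were higher and 5.97% lower in July, 12.8% and 16% in August, and 17% and 6.82% in September. Clock transcripts change within hours, and the labels give the sampling hour only as near 8 pm.

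Of the other lower genes, LOC100049397, a metallothionein that binds zinc and copper, had 295 and 234 FPKM in July 2017, 329.8 and 332 in August 2017 and 222 and 249 in September 2017. In 2016 it had 393 and 525 FPKM in July, 787 and 526 in August and 499 and 801 in September. All libraries of 2017 were below those of 2016, and the difference was -1.06 ± 0.24 (adjusted p = 0.0298). That call was lost in limma with no filter (adjusted p = 0.057). amdhd1, an enzyme of histidine breakdown, fell by 1.24 ± 0.23 and lpar4, a receptor of lysophosphatidic acid, by 1.09 ± 0.22 on the log2 scale. LOC101163909, of the histone methyltransferase SETD1B type, fell by 1.12 ± 0.26, a call lost in limma with no filter (adjusted p = 0.0571). Smaller falls were those of the signalling regulator LOC101172559 (RGS12 type, -0.89 ± 0.16), the ectoenzyme LOC101168658 (CD38 type, -0.87 ± 0.18), the transcription factor hivep2 (-0.80 ± 0.15) and the kinase LOC101157952 (mapk9 type, -0.78 ± 0.14). The repressor LOC101173812, of the ERF type, had -0.82 ± 0.21 with an adjusted p of 0.0454. That call was lost without replicate 2 of July or August 2017 or replicate 1 of July or September 2016, with adjusted p-values of 0.0506 to 0.061.

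**Figure D4:**
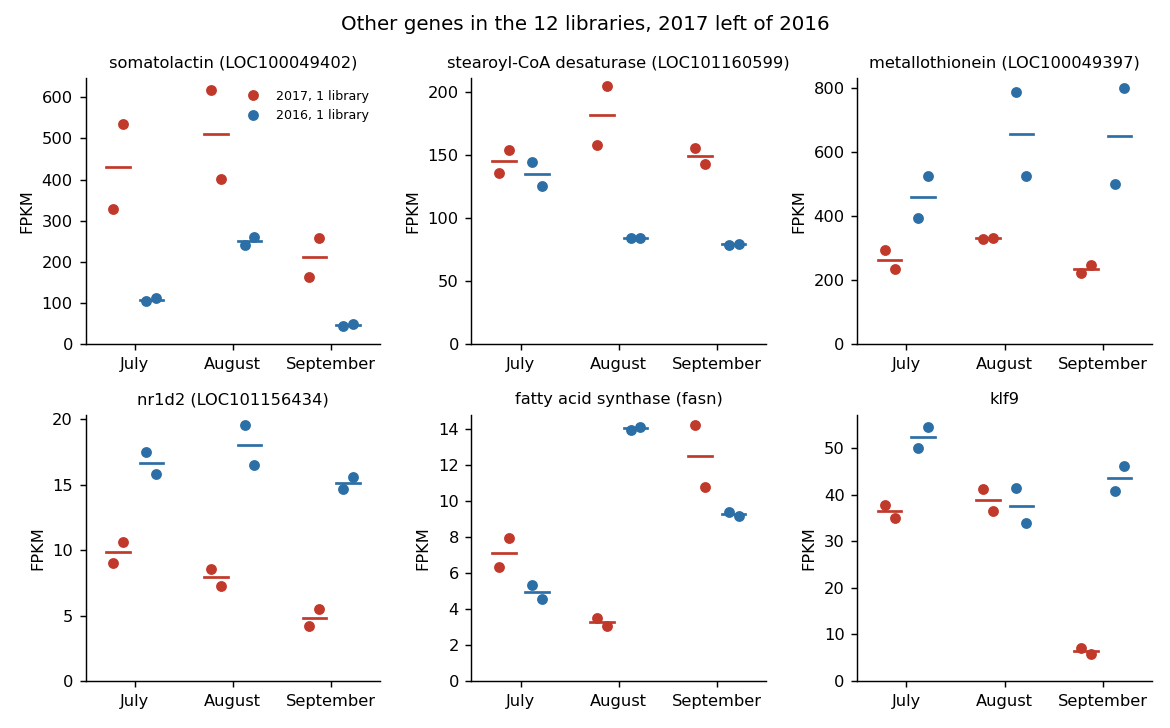
Level of 6 genes outside the chaperone list, in FPKM on a linear axis from 0, with 2017 left of 2016 in each month, 1 point per library and a line at the mean of each date. Somatolactin (LOC100049402) is at 617 and 402 FPKM in August 2017 and 241 and 260.2 FPKM in August 2016, and the Rev-erb LOC101156434 is lower in every library of 2017.

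With libraries as units, July 2017 had 1093 genes higher (6.63%) and 984 lower (5.97%), August 2117 higher (12.8%) and 2645 lower (16%), and September 2801 higher (17%) and 1124 lower (6.82%). These tests measure only the spread between the 2 libraries of a date, which may be technical, and their counts cannot be set against the 564 from date means; all 3 months together gave 4312 with libraries as units. In 2653 genes (16.1%) the year difference was unequal between the months, by a test with the same limit. July and August shared 550 higher genes, which are 50.3% of those of July and 26% of those of August, and 548 lower ones, 55.7% and 20.7%. August and September shared 714 higher genes, 33.7% of August's and 25.5% of September's, and 288 genes went opposite ways in these months, against 65 between July and August and 46 between July and September. In all 3 months, 300 genes were higher and 213 lower.

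Genes of fatty acid and cholesterol synthesis went opposite ways in August and September. Of 42 genes tested (47 matched), 2 were higher and 21 lower in August 2017, with a median of -0.41, and 21 were higher and 2 lower in September 2017, with a median of 0.41. Over all genes tested, 12.8% were higher and 16% lower in August, 17% and 6.82% in September, and 6.63% and 5.97% in July. In July 11 of the 42 were higher and 4 lower, and 26 were unequal between months, against 16.1% of all genes. These counts were chosen after the data were seen; with scaled libraries, 17 were higher and 4 lower in September. Over the summer 1 gene of the 42 rose and 0 fell, near the 2.26% and 1.16% of all genes tested. fasn, the fatty acid synthase, had 6.32 and 7.95 FPKM in July 2017, 3.48 and 3.08 in August 2017 and 14.2 and 10.8 in September 2017. In 2016 it had 5.33 and 4.58 FPKM in July, 14 and 14.1 in August and 9.38 and 9.2 in September. August 2017 was thus below and September 2017 above the same month of 2016, with differences of -1.82 and 0.38, of which August passed alone, and the months were unequal (adjusted p = 1e-07).

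Some members of the list, picked after their values were seen, make cholesterol. LOC101169834, of the cyp51 type, rose by 1.40 in July, fell by 0.78 in August and rose by 1.0 in September. lss had 1.08 in July, -0.54 in August and 0.72 in September, and hmgcs1 0.77, -0.60 and 0.63, all of which passed. sqle fell in August by 1.24 and rose in September by 0.88, with 0.52 in July. srebf1, a transcription factor of lipid synthesis, fell in all 3 months, by 0.50, 1.0 and 0.27. The stearoyl-CoA desaturase LOC101160599, which makes oleic acid, was the one that rose over the summer. It had 136 and 155 FPKM in July 2017, 159 and 205 in August 2017 and 156 and 143 in September 2017, against 145 and 125 in July 2016, 84.3 and 84.3 in August 2016 and 78.6 and 79.9 in September 2016. Its July values overlapped between years, and the difference was 0.70 ± 0.16 (adjusted p = 0.0349). That call was lost in limma with no filter (adjusted p = 0.057).

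**Figure D5:**
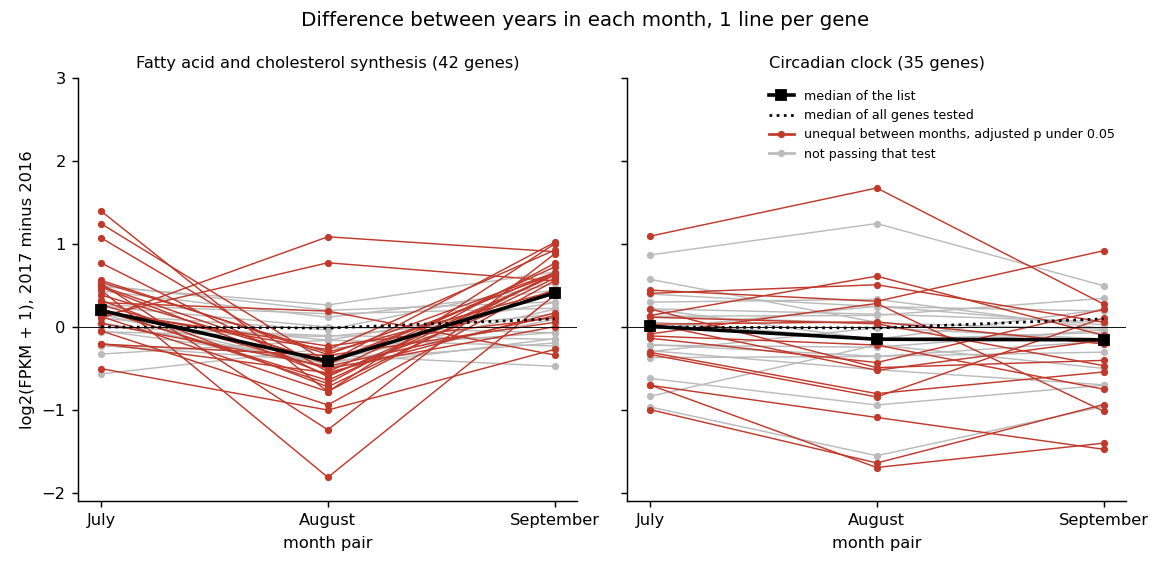
Difference between 2017 and 2016 on the log2(FPKM + 1) scale for fatty acid and cholesterol genes and for clock genes, by month, with 1 line per gene, red where the months were unequal, and black squares at the median of the list. The lipid genes have a median of -0.41 in August and 0.41 in September.

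In September 2017 klf9 and LOC101157675 were several-fold lower than in September 2016. klf9, a transcription factor known to be induced by glucocorticoids, had 38 and 35.1 FPKM in July 2017, 41.3 and 36.6 in August 2017 and 7.13 and 5.82 in September 2017. In 2016 it had 50.1 and 54.7 FPKM in July, 41.5 and 33.9 in August and 40.9 and 46.3 in September. September 2017 was below all other libraries compared, with a difference of -2.58 ± 0.16. LOC101157675, of the fkbp5 type, a co-chaperone of the glucocorticoid receptor, had 40.4 and 26.1 FPKM in September 2017, against 230 and 241 in September 2016, a difference of -2.82 ± 0.29. In the other months it had 212 to 273 FPKM in 2017 and 137 to 278 FPKM in 2016. Both genes varied widely in the 38 libraries of all other dates. There klf9 had 8.45 to 60.3 FPKM with a median of 27, and LOC101157675 13.5 to 271 FPKM with a median of 80.6. ddit4, an inhibitor of growth signalling, fell by 1.55 in September and rose by 0.82 in August. These 3 genes are of no common list here. The September dates lie 9 days apart, and the part of that gap was not tested.

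Other genes led September in each direction. Its dates were 19 September 2017 and 28 September 2016, and the part of that gap was not tested for these genes either. f13a1, a clotting factor subunit made by macrophages, had 12.2 and 23.6 FPKM in September 2017 and 0.45 and 0.48 in September 2016, a difference of 3.62. dhrs3, which reduces retinaldehyde, had 15.9 and 14.6 FPKM in September 2017 and 1.52 and 0.85 in September 2016, a difference of 2.91. LOC101163147, of the abca1 type, a cholesterol exporter, fell by 1.08 in September and by 0.68 ± 0.14 over the summer (adjusted p = 0.0225). Of 49 genes of oxidative phosphorylation, 20 were higher and 0 lower in September 2017, where 17% of all genes were higher. With scaled libraries 12 were higher and 0 lower. Of 14 oligodendrocyte markers 5 were higher and 0 lower in September, 2 and 0 with scaled libraries; their sum was 1811 and 1538 FPKM in September 2017 and 1288 and 934.6 FPKM in September 2016. In the values as deposited, 5 of 10 erythrocyte markers were higher in September, with sums of 2996 and 4551 FPKM in 2017 and 1300 and 1946 FPKM in 2016. In the same values 7 of 14 markers of radial glia and astroglia and 5 of 14 of microglia and macrophages were higher. Radial glia sums were 2699 and 2812 FPKM in September 2017 and 2218 and 2298 FPKM in September 2016. Microglia sums overlapped, at 312.7 and 352.4 FPKM in September 2017 and 281.8 and 357.5 FPKM in September 2016. Hypothalamic marker sums were 577.6 and 506.3 FPKM in September 2017 and 343.2 and 337.4 FPKM in September 2016. Only 1 of the 14 hypothalamic markers was higher in September by the test, and 0 were lower. The part of these cells and regions in other September differences was not tested. The split of all September calls also moved with scaling, to 1597 higher and 1901 lower with quantile normalization and 1538 higher and 1897 lower with median ratio scaling.

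Of 42 GABA and glutamate genes, which carry fast synaptic transmission, 2 were higher and 20 lower in August 2017, with a median of -0.20, and 15 to 24 were lower with scaled libraries. Over all genes tested, 12.8% were higher and 16% lower in August. Over the summer 0 of the 42 passed in either direction in limma. An unadjusted p under 0.05 in limma was reached by 15 of them, and by 3772 of all 16493 genes tested. Of 20 neuron markers, 2 were higher and 7 lower in August, with sums of 1714 and 1622 FPKM in August 2017 and 1860 and 1926 FPKM in August 2016. Their part in the GABA and glutamate counts was not tested. Among the leading falls of August were LOC101165167, an HMG-T type chromatin protein (-1.31), LOC101171518, an alpha tubulin (-1.32), and lancl1 (-1.03).

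Further lists held few calls over the summer, when 3.42% of all genes tested passed, 2.26% higher and 1.16% lower. A single call describes its gene and not its list. LOC101169850 (txnrd1 type), a thioredoxin reductase, rose by 0.53 among 16 NRF2 genes, LOC101170853 (ndrg1 type) by 0.61 among 19 hypoxia genes, tra2b, a splicing factor, by 0.59 among 18 cold-inducible genes, and LOC101165839 (klf6 type) by 0.36 among 31 immediate early genes, a call lost with scaled libraries. The klf6 call was also lost without July 2016 replicate 2 (adjusted p = 0.065), and the ndrg1 call without replicate 2 of July 2017, replicate 2 of July 2016 or replicate 1 of September 2016 (adjusted p-values of 0.0528 to 0.0697). foxo3 fell by 0.62 among 29 insulin and growth genes, the complement gene LOC101174608 (c7 type) by 0.63 ± 0.09 among 22 inflammation genes, and LOC101163304, an opn5 opsin, by 1.02 among 9 opsins, a call lost without August 2016 replicate 1 (adjusted p = 0.0517). Among 49 genes of oxidative phosphorylation, ndufa7 and ndufs6 of complex I rose by 0.35 and 0.36 and ndufv3 fell by 0.64, each a call that at least 1 single library decided, with adjusted p-values of 0.0547 to 0.0861 without it. No member of the ribosomal protein (71 tested), interferon (37), collagen (21), monoamine (16) or proliferation (11) lists passed in limma. At an unadjusted p under 0.05 in limma there were 3, 4, 4, 2 and 0, against 3772 of all 16493 genes tested.

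The summer difference was set against the year difference of October to June by a test of the difference itself. Both summers lie after a step seen in these data at July 2016, whereas the October to June pairs straddle it. The test cannot tell a difference between the summers apart from that step. It differed in 3197 genes (19.4%), 2299 with the summer one more positive (13.9%) and 898 more negative (5.44%). With quantile normalization 1287 were more positive and 1644 more negative, and with median ratio scaling 1411 and 1438; the scalings moved the median over all genes from 0.11 to -0.0019 and 0.02. Of the 372 higher genes 330 differed in this way, of the 192 lower genes 139, and of the 43 chaperones 29. The test contains the same summer difference by which the 372 and 192 were selected, so their counts are no separate support. The smallest adjusted p-values belonged to genes that had changed before both summers. gnrh2, the releasing hormone of the midbrain, was at 13.7 to 29.4 FPKM up to June 2016 and at 0 to 0.82 FPKM from July 2016 on, so its October to June difference was -4.40 and it was near 0 in both summers (adjusted p = 1e-08). LOC100533498 and LOC100533501 (CART peptides), rln3a (relaxin 3) and LOC101175655 (slc17a7 type, a glutamate transporter) shared that sequence, with October to June differences of -4.33, -3.27, -4.06 and -2.31.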

How the data were processed

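Per the submitters' processing notes, Bowtie2 2.2.5 and RSEM 1.2.12 were used, with no role given. Per the labels' protocols, poly-T selected mRNA went into strand-specific paired-end libraries. The authors deposited FPKM values for 23455 genes, and the genome build is not given in the sources used here. From these values log2(FPKM + 1) was computed, and the 16493 genes averaging 1 FPKM or more across the 50 libraries were tested in limma 3.58.1 (R 4.3.3) with a variance trend. Benjamini-Hochberg adjustment ran over these genes, with a threshold of 0.05.

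The main fit used means of 24 dates (September 2015 left out), 12 month blocks and separate year differences for July to September and October to June, with 10 residual degrees of freedom. Single months and their inequality (an F test) were fitted on libraries of 25 dates. Members and lists were chosen with earlier results of these data known. Named genes were hormone and photoperiod genes, the 10 largest changes per direction, the 5 smallest adjusted p-values of the other comparisons, and up to 4 members per list; further members were picked after their values were seen. Alternatives changed scaling, pseudocount, filter, unit, season term, month pairs and single libraries. No sequence or coordinate is given. Figures used matplotlib 3.10.9.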

Additional observations from a re-analysis of the deposited data

Results flagged for a closer look

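Among the library sums checked in groups of 6, 4 of 36 groups had 1 library apart from the other 5. The 6 libraries of a group come from 3 dates with 2 libraries each, so no chance rate is given. In 2017, July replicate 1 had the lowest FPKM sum (306808) and the lowest hypothalamic marker sum (345.9 FPKM). In 2016, July replicate 1 had the highest pineal marker sum (29.97 FPKM, 1 gene tested) and the highest retina and lens marker sum (12.88 FPKM, 2 genes tested).

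The summer year difference differed from that of October to June in 3197 genes and was unequal between the 3 months in 2653. Of the hormone and reproductive genes, the months were unequal for cga (adjusted p = 0.0034), fshb (0.0004), the prolactin LOC101172582 (0.017), the thyrotropin subunit LOC101171658 (0.036), gnrh1 (0.026), dio2 (0.009), dio3 (1.9e-05), cyp19b (0.0041) and cirbp (0.021). The summer differed from October to June for somatolactin LOC100049402 (0.022), gnrh2 (1e-08), esr1 (0.019), kiss-2 (0.0069) and the thyrotropin receptor LOC101170361 (0.0081), and for LOC100533498 (9.9e-07), rln3a (9.9e-07), LOC101175655 (6.8e-06) and LOC100533501 (2.7e-05). LOC101175655 was also unequal between months in the F test (0.028). Its libraries lay near 0, at 0 to 0.3 FPKM in July-September 2017 and 0 to 0.48 FPKM in July-September 2016.

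Of the chaperone genes, the difference from October to June had an adjusted p of 0.0061 for LOC101169506, 0.0062 for LOC101169944, 0.011 for LOC111947725, 0.0096 for LOC111947723, 0.0061 for LOC100125490 and 0.0028 for stip1. Their months were unequal with adjusted p-values of 7.8e-15, 1.4e-08, 1.5e-09, 0.00019, 5.8e-13 and 3.3e-14 in the F test. For LOC111948319 and LOC111948318, which have the same value in every library, it was 7.7e-18. Both passed the filter on low values only through the 2017 libraries, so that value is no separate support.

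LOC101162572 differed from October to June at 0.019 and between months at 6.4e-09, LOC101172185 at 0.012 and 4e-07, and herc4 at 0.014 and 1.2e-14. Among the lower genes the same 2 adjusted p-values were 0.0055 and 0.0085 for LOC101163909, 0.023 and 0.044 for LOC101156434, 0.0055 and 0.0024 for lpar4, 0.02 and 0.002 for LOC101173812, and 0.003 and 0.037 for hivep2. LOC101172559 (0.0044) and LOC101157952 (0.0065) differed from October to June only.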

How the results depend on the processing

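The date, not the library, limits the summer comparison: with 3 dates a year, its 564 calls became 328 with no filter, 11 in the 6 dates alone, 15 without the July pair, 0 without the August pair (2569 at an unadjusted p under 0.05 in limma) and 271 without the September pair. They became 4312 with libraries as separate samples, 1820 with the date as a random effect, 1814 with the replicate block added to that, and 1137 with cosine and sine terms in place of the months. Same-numbered libraries deviated together with correlations of -0.08732 to 0.1092, so the numbers do not pair them. Leaving out 1 library gave 410 to 857, the highest without September 2016 replicate 2. A lone library is then assumed to vary like the other dates.

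The 3197 genes that differed from October to June became 7293, 4563, 4542 and 4100 under the same 4 settings, 1917, 1588 and 939 without the July, August or September pair, and 2833 to 3649 without 1 library. July's 2077 became 1381 in the 12 libraries alone, and 1001 to 2081 without 1 library, the 4 values from 1001 to 1142 without a library of July. August's 4762 ranged from 2914 to 4767, with 3144 without August 2017 replicate 1 and the lowest without August 2016 replicate 1. September's 3925 ranged from 1515 to 3936, the lowest without September 2016 replicate 1, with 2012 and 2285 without September 2017 replicate 1 and replicate 2. The 2653 unequal genes became 1410 in the 12 libraries alone and 1894 to 2629 without 1 library. With the replicate number as a block the months gave 2182, 4853 and 4040, and the unequal genes 2773.

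List counts were recomputed after the data were seen. The 21 higher chaperones became 33 with separate libraries, 0 in the 6 dates alone or without August, 1 without July, and 18 to 24 without 1 library. Lipid genes lower in August numbered 16 to 23, and higher in September 15 to 21, without 1 library. Quantile normalization turned the 66% of summer calls that were higher into 53%. Of 97 results for named genes, 8 took the opposite sign under at least 1 alternative, and none of these 8 passed in the summer comparison: LOC101172582, cga, dio2, dio3, fshb, gnrh1, gnrh2 and lhb. Of 39 named summer calls, 37 remained under each scaling, 25 with no filter, 3 in the 6 dates alone and 34 to 39 without 1 library. Without the July pair 1 of them remained, without the August pair 0 and without the September pair 21.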
